A study of Mus musculus with 12 samples.

Results

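RANK (Tnfrsf11a), its TRAF adaptors, the kinases and binding protein that act after them, and the NF-kB subunits were followed in osteoclasts. The osteoclasts were left unstimulated, cultured with eosinophils or given eosinophil supernatant. The 10 genes were Tnfrsf11a, Traf6, Traf3, Map3k7, Tab2, Map3k14, Nfkb1, Nfkb2, Rela and Relb. They were taken by symbol from a table of 47643 genes, each symbol had 1 row, and all 10 passed the filter on low counts. Expression was read from 12 libraries, 4 in each of 3 groups. The study's methods call them biological replicates, and the labels do not say which animals they came from, so the p-values measure the spread between these libraries. All cells were BALB/c WT bone marrow-derived monocytes (BMMs) kept in medium with M-CSF and RANKL and harvested on day 3 as osteoclasts. OCsCtr was left unstimulated, OCsEo received sorted eosinophils at a BMMs/Eos ratio of 1:2, and OCsEoS received eosinophil supernatant at a 1:2 dilution. Each stimulus was given on day 0 for 48 h, after which the cells were washed and the medium changed, and RNA was taken later. Whether the wash removed all eosinophils was not tested. The eosinophils came from hyper-eosinophilic IL-5tg/4get mice, whose eosinophils were pooled from blood and bone marrow before use, and they need not match eosinophils of WT mice.

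RANK is the receptor on osteoclast precursors for the cytokine RANKL, and mice without it lack osteoclasts. Its tail has no enzyme activity of its own and recruits TRAF proteins. Traf6, a ubiquitin ligase, builds ubiquitin chains that bring in TAK1 (Map3k7) through its binding protein Tab2, and TAK1 switches on the IKK complex and MAP kinases, which frees Nfkb1 and Rela dimers in the canonical branch. In the alternative branch Traf3 keeps the kinase NIK (Map3k14) low, and when Traf3 is removed NIK drives processing of Nfkb2, which pairs with Relb. Both branches are known from mouse genetics to be needed for normal osteoclast formation.

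Of the 10 genes, Traf6 was lower with either stimulus and was the only one called. Called here means that edgeR's quasi-likelihood test gave a Benjamini-Hochberg adjusted p below 0.05, over the 13681 genes tested, and that the log2 fold change was beyond 0.5 in size. Tab2 was lower by the adjusted p alone with either stimulus and Tnfrsf11a with supernatant, both by less than the fold cut-off. The 4 NF-kB subunits Nfkb1, Nfkb2, Rela and Relb, the NIK gene Map3k14, and Traf3 and Map3k7 did not pass the test in either comparison, and none of the 10 was higher. Both comparisons share the OCsCtr libraries, so they are not independent.

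The sequence in front of the 3 genes that passed the adjusted p is shown first, together with that of 2 genes of NF-kB subunits. Windows of 300 bases, 250 before and 50 after a RefSeq transcription start (GRCm38.p6), were found for 8 of the 10 genes; Nfkb1 and Relb had none. Capitals mark matches on either strand to the SP1 core GGGCGG (35.7% of all 32851 windows of this length hold it), the PU.1 core GAGGAA (28.3%), the AP-1 site TGANTCA (7.81%) and the 10-base NF-kB consensus (8.46%). Matches that touch run together in capitals, as for the PU.1 and SP1 cores of Traf6. They describe letters and are not shown to be bound sites. Each sequence reads 5′ to 3′ on the strand of the gene.
Traf6 (chr2:101678170-101678469, plus strand): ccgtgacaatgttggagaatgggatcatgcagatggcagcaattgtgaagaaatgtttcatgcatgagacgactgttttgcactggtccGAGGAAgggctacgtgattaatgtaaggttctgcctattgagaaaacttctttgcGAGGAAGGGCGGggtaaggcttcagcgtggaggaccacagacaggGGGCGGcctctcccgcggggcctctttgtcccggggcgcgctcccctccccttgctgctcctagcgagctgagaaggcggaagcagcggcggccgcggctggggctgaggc
Tab2, internal start (chr10:7953016-7953315, minus strand): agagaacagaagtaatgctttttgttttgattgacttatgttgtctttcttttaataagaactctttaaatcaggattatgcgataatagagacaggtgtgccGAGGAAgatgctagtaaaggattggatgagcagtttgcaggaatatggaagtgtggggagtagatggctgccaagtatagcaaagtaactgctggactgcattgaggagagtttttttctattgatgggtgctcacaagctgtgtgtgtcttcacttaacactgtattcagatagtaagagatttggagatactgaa
Tab2, start near the 5′ end of the gene (chr10:7956074-7956373, minus strand): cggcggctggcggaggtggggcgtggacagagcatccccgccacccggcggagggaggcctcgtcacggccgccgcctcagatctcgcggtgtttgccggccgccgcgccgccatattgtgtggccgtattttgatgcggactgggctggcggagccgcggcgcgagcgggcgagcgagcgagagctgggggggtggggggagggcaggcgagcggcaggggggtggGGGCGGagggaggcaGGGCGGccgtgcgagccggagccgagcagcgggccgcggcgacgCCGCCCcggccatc
Tnfrsf11a (chr1:105780473-105780772, plus strand): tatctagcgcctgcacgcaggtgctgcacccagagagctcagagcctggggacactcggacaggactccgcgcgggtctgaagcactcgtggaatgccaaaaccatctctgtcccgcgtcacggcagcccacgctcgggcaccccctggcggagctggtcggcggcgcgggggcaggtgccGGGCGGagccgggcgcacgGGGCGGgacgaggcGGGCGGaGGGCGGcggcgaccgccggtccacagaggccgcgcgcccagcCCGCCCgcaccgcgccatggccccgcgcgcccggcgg
Nfkb2, first of its starts (chr19:46304487-46304786, plus strand): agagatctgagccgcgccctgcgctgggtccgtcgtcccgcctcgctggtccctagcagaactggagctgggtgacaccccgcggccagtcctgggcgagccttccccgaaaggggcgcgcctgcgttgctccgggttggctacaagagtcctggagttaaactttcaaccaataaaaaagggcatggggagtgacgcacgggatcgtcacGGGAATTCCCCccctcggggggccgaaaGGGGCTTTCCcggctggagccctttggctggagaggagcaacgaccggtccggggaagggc
Rel (chr11:23770920-23771219, minus strand): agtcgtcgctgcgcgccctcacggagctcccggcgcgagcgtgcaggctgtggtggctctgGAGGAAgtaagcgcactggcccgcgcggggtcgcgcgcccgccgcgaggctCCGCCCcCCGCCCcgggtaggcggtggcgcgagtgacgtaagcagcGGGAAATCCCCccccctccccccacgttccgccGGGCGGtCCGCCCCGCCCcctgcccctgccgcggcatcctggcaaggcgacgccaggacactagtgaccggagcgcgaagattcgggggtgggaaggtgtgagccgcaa
The Traf6 window held 2 PU.1 cores and 2 SP1 cores. The Tab2 windows differed in base composition, with 38.7% G and C and 1 PU.1 core at the internal start and 78.0% and 3 SP1 cores at the other, against a median of 52.7% over all windows. The Tnfrsf11a window had 5 SP1 cores and 76.7% G and C. None of these 4 windows matched the NF-kB consensus, which is near the background, since only 8.46% of all windows hold it. The Nfkb2 window matched it 3 times and the Rel window 2 times, with overlapping matches in both. The NFAT core GGAAA (61.3% of all windows) was searched too, on both strands, and its matches are not marked by capitals. The E-box CACGTG (7.15% of all windows) had no match in the windows printed here. Of the others of the 10 genes with a window, Traf3 and Map3k7 had 1 NF-kB match each and Rela and Map3k14 had 0. The later starts of Nfkb2 had 2 and 1 matches. Outside the 10 genes, the window of Src, a pathway gene lowered with either stimulus, had 1, and those of Map2k6 had 0.

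The depth of the libraries ranged from 27837530 to 40327869 counts, and levels are given as CPM, the counts of a gene scaled to a common library total, after TMM scaling. The lowest level among the 10 genes was that of Map3k14, at 3.09 to 5.98 CPM, far above the 0.0769 to 0.107 CPM that 3 counts amount to. Osteoclast markers were abundant, and the sum of 10 of them (Acp5, Ctsk, Mmp9 and others) was 28358 to 34496 CPM in OCsCtr, 18093 to 23205 in OCsEo and 14942 to 22171 in OCsEoS. 8 of these 10 markers were called lower in each comparison. Of 10 eosinophil markers, 5 were tested. Siglecf and Alox15 were called higher in OCsEo and Prg2 lower in OCsEoS. Prg2 did not pass in OCsEo (log2 fold change -0.01, adjusted p = 0.994). Ccr3, the most abundant of the 10, was lower with either stimulus by adjusted p alone (-0.29 and -0.23, adjusted p = 0.0164 and 0.0442). The sum of the 10 was 57.1 to 73.7 CPM in OCsCtr, 60.1 to 82.2 in OCsEo and 49.3 to 55.5 in OCsEoS. Epx, the eosinophil peroxidase gene, was at 0 counts in all OCsEoS libraries and at most 0.479 CPM in OCsEo. The neutrophil markers summed to 312 to 455 CPM in OCsCtr, 456 to 610 in OCsEo and 357 to 425 in OCsEoS (2 of 9 called higher in OCsEo), the macrophage markers to 1086 to 1260, 1218 to 1446 and 1132 to 1250 (1 and 3 of 7 called higher), and the T or B cell markers to at most 21.4 CPM in any library. The macrophage markers did not all move in 1 direction. Cd68, the most abundant of them, was lower in OCsEoS by adjusted p alone (-0.33, adjusted p = 6.16e-04). By the same rule Adgre1 was higher in OCsEo (0.46) and Cx3cr1 in OCsEoS (0.45). Ly6c2 was below 0 with either stimulus (-0.25 and -0.24) and did not pass. Over all genes tested, higher calls made up 3.27% in OCsEo and 3.63% in OCsEoS. In bulk samples fewer cells of a type and less RNA per cell cannot be told apart. The part of these marker shifts in the results below was not tested. The libraries also differed from each other in how counts depended on gene length. The slope was fitted to each gene's log2 CPM minus its mean over the 12 libraries. Its sign is therefore relative to the other libraries and does not give the dependence within a library. This relative slope was above 0 in all 4 OCsCtr libraries (0.0155 to 0.0600 log2 CPM per doubling of length). It was below 0 in all 4 OCsEoS libraries (-0.0541 to -0.0117) and on both sides in OCsEo (-0.0685 to 0.0284). The 10 genes have a median length of 6279 bases against 3634 for all genes tested. Values with this trend taken out were read for the 10 genes, the pathway genes called, and Tnfrsf11b, Chuk, Ikbkb, Ikbkg and Nfkbia. Of these, they are given for genes whose direction or test outcome turned, and for Traf6. Other pathway and target genes named by adjusted p alone, such as Otulin, Cyld, Tnfaip3 and Sod2, were not examined in this way.

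Tnfrsf11a, which encodes RANK itself, lies on chromosome 1 (105780718 to 105847981, plus strand, GRCm38). Its level was 118, 112, 118 and 118 CPM in the OCsCtr libraries, 113, 110, 92.8 and 109 CPM in OCsEo, and 97.5, 106, 91.2 and 95.02 CPM in OCsEoS. The OCsEo values reached into the OCsCtr range in 1 library, whereas every OCsEoS library was below every OCsCtr library. In OCsEo the log2 fold change was -0.13 ± 0.07 (SE), with a 95% interval from -17.6% to 0.783%, and did not pass the test (adjusted p = 0.208). In OCsEoS it was -0.26 ± 0.07 (adjusted p = 0.0107), an estimate of -16.3% with an interval from -24.3% to -7.48%, which is under the fold cut-off. Once the dependence on gene length was taken out, the OCsEoS value was -0.16 and no longer passed (adjusted p = 0.0701). The 2 stimuli did not differ detectably from each other for Tnfrsf11a (log2 difference of OCsEoS to OCsEo -0.12 ± 0.07, interval -17.0% to 1.497%, adjusted p = 0.531).

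Traf6, the TRAF adaptor that couples RANK to TAK1 and without which mice have severe osteopetrosis, lies on chromosome 2 (101678429 to 101701669, plus strand) and has no overlapping gene in GENCODE vM21. Its level was 82.4, 82.6, 88.9 and 88.5 CPM in OCsCtr. In OCsEo it was 53.8, 49.95, 51.4 and 51.3 CPM, and in OCsEoS 49.2, 57.7, 55.7 and 54.0 CPM. All 8 stimulated libraries lay below all 4 controls, with a gap much wider than the spread within any group (coefficients of variation 4.22%, 3.12% and 6.70%). The log2 fold change was -0.73 ± 0.07 in OCsEo (a change of -39.7%, 95% interval -45.4% to -33.4%, adjusted p = 8.40e-07). In OCsEoS it was -0.66 ± 0.07 (a change of -36.7%, interval -42.7% to -30.1%, adjusted p = 3.90e-06). Among all genes with a negative fold change Traf6 had the third lowest p in OCsEo and rank 10 in OCsEoS. The direct comparison of the stimuli gave 0.07 ± 0.07 (adjusted p = 0.760), with an interval from -4.99% to 15.9%. The call was made in each fit with a library left out and with the length trend taken out (-0.62 and -0.53); in a test against the fold cut-off itself the adjusted p was 0.0715 and 0.269, and the gene was not called by it.

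Traf3, the adaptor that restrains NIK, lies on chromosome 12 (111166370 to 111267153, plus strand) and had 22.4, 15.6, 18.5 and 18.1 CPM in OCsCtr, 17.4, 19.6, 14.8 and 15.3 CPM in OCsEo, and 17.6, 17.6, 13.9 and 19.2 CPM in OCsEoS. The 3 groups overlapped throughout. The log2 fold change was -0.15 ± 0.13 in OCsEo (adjusted p = 0.508). With supernatant it was -0.13 ± 0.13 (adjusted p = 0.561). The intervals, from -25.6% to 9.29% and from -24.4% to 11.1%, do not reach the size measured for Traf6. Within a library, the ratio of Traf6 to Traf3 per gene length, which does not depend on library scaling, was 4.36 ± 0.652 in OCsCtr, 2.90 ± 0.380 in OCsEo and 3.00 ± 0.527 in OCsEoS (mean ± SD, n = 4). The lowest OCsCtr ratio, 3.42 in replicate 1, was above the highest OCsEo ratio, 3.23, but below the OCsEoS ratio of replicate 3, 3.73.

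**Figure D1:**
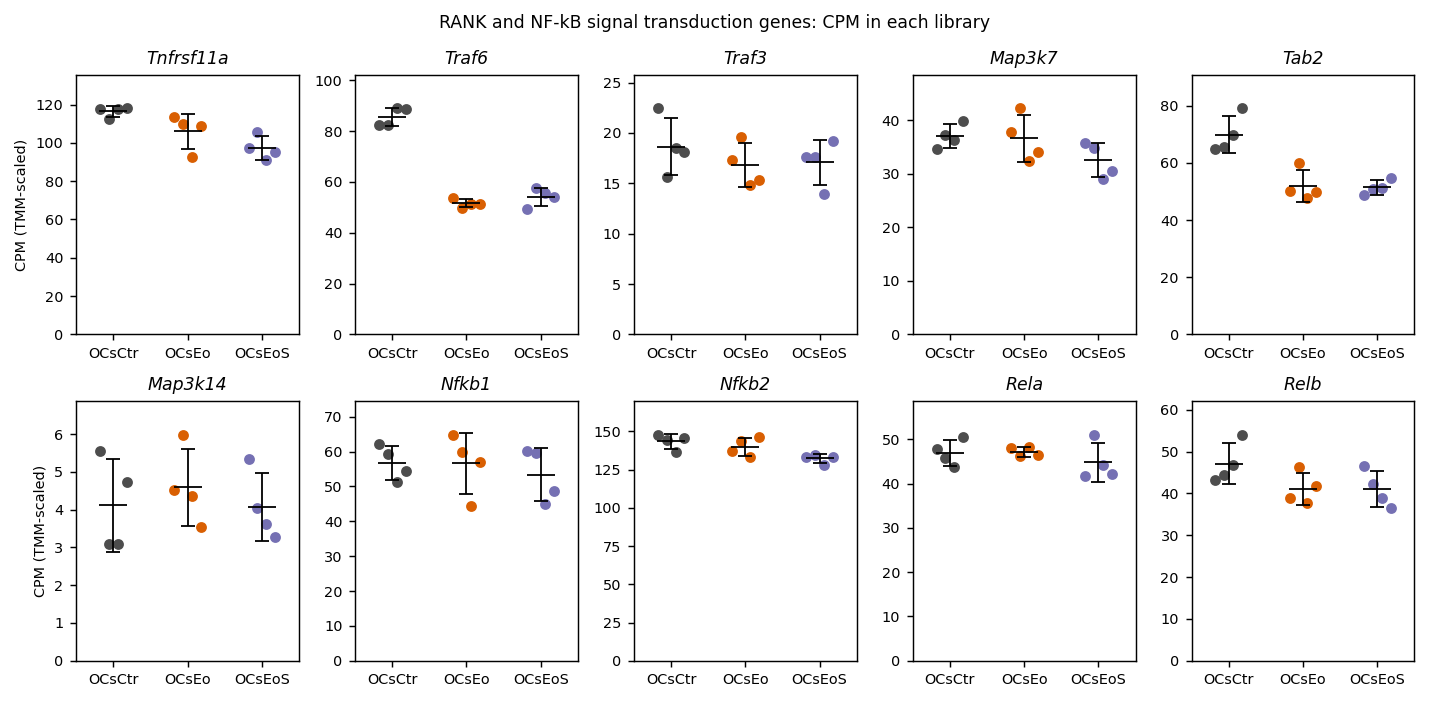
Level of each of the 10 genes in each library, in CPM after TMM scaling (vertical axes from 0, one panel a gene), with the points of OCsCtr, OCsEo and OCsEoS side by side and bars for the mean ± SD of 4 libraries. Traf6 falls from 82.4 to 88.9 CPM in OCsCtr to 49.2 to 57.7 CPM in the stimulated libraries, Tab2 shows a smaller step, and the NF-kB subunits overlap or nearly touch between groups.

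Tab2, the protein that binds ubiquitin chains and holds TAK1 to them, lies on chromosome 10 (7905653 to 7956230, minus strand). It had 64.8, 65.5, 69.9 and 79.0 CPM in OCsCtr, 50.2, 60.1, 47.7 and 49.8 CPM in OCsEo and 48.6, 51.0, 51.4 and 54.8 CPM in OCsEoS. No stimulated library reached the lowest control, though the highest OCsEo library, replicate 2, came near it. The log2 fold change was -0.43 ± 0.08 in OCsEo (a change of -25.6%, 95% interval -34.1% to -15.9%, adjusted p = 0.00149) and -0.44 ± 0.08 in OCsEoS (a change of -26.3%, interval -34.8% to -16.7%, adjusted p = 7.95e-04). Both passed the adjusted p and stayed short of the fold cut-off. Without OCsEo replicate 2 the OCsEo value was -0.50 and the gene was called.

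Map3k7, the gene of the kinase TAK1 that Tab2 serves, lies on chromosome 4 (31964097 to 32023467, plus strand) and had 34.6, 37.2, 36.3 and 39.9 CPM in OCsCtr, 37.8, 42.2, 32.4 and 34.1 CPM in OCsEo and 35.8, 34.8, 29.1 and 30.6 CPM in OCsEoS. The log2 fold change was -0.02 ± 0.10 with eosinophils (adjusted p = 0.943) and -0.18 ± 0.10 with supernatant (adjusted p = 0.196). The interval in OCsEo ran from -14.1% to 13.96%. Map3k14, the gene of the kinase NIK on chromosome 11 (103219762 to 103267472, minus strand), was the least abundant of the 10, at 5.55, 3.09, 3.09 and 4.73 CPM in OCsCtr, 4.51, 5.98, 4.36 and 3.53 CPM in OCsEo and 5.34, 4.05, 3.62 and 3.27 CPM in OCsEoS. Its log2 fold changes of 0.17 ± 0.24 and -0.02 ± 0.24 had 95% intervals of -21.1% to 59.4% and -30.5% to 40.9%. Changes within these wide bounds are compatible with the data. NIK is known to be set mainly by protein turnover, which RNA counts do not measure. The 1700028N14Rik gene, whose exons overlap those of Map3k14, had 0 counts in every library.

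The subunits of the canonical branch, Nfkb1 (p105, cut to p50) and Rela (p65), overlapped between all groups. Nfkb1, on chromosome 3 (135584655 to 135691547, minus strand), had 62.0, 59.4, 51.2 and 54.5 CPM in OCsCtr, 64.8, 60.0, 44.5 and 57.0 CPM in OCsEo and 60.0, 59.7, 45.1 and 48.6 CPM in OCsEoS. Its log2 fold changes were -0.01 ± 0.11 (adjusted p = 0.981) and -0.09 ± 0.11 (adjusted p = 0.624). Rela, on chromosome 19 (5637483 to 5648130, plus strand), had 47.7, 45.8, 43.7 and 50.6 CPM in OCsCtr, 47.9, 46.1, 48.2 and 46.4 CPM in OCsEo and 41.7, 51.0, 44.2 and 42.1 CPM in OCsEoS. Its log2 fold changes were 0.01 ± 0.08 (adjusted p = 0.972) and -0.07 ± 0.08 (adjusted p = 0.599), and the intervals, -10.5% to 12.7% and -15.0% to 6.98%, were among the narrower ones. With the length trend taken out, Nfkb1, the longest of the 10 genes at 12061 bases, stood at 0.16 and 0.10 on the log2 scale and did not pass either.

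The subunits of the alternative branch, Nfkb2 (p100, cut to p52) and Relb, also stayed short of the test. Nfkb2, on chromosome 19 (46304737 to 46312090, plus strand), had 148, 144, 136 and 146 CPM in OCsCtr, 137, 143, 133 and 146 CPM in OCsEo and 133, 135, 128 and 133 CPM in OCsEoS. All 4 OCsEoS libraries lay below all 4 controls, by a narrow margin. The OCsEoS estimate of -0.12 ± 0.06 on the log2 scale did not pass (adjusted p = 0.150), and that of OCsEo was -0.04 ± 0.06 (adjusted p = 0.727). Exons of Nfkb2 share positions with those of Psd on the opposite strand, a gene with 115 to 261 counts a library, and the strand setting of the counting is not given in the sources used here. Relb, on chromosome 7 (19606217 to 19629438, minus strand), had 43.3, 44.4, 46.8 and 54.0 CPM in OCsCtr, 38.9, 46.2, 37.7 and 41.8 CPM in OCsEo and 46.5, 42.2, 39.0 and 36.4 CPM in OCsEoS. Its log2 fold changes were -0.20 ± 0.10 in both comparisons (adjusted p = 0.177 and 0.144), with intervals from -24.0% to 0.273% in OCsEo and from -24.2% to -0.0561% in OCsEoS. Within a library, the ratio of Nfkb2 to Nfkb1 per gene length was 9.30 ± 0.557, 9.22 ± 1.35 and 9.22 ± 1.18 in OCsCtr, OCsEo and OCsEoS, and that of Relb to Rela 0.701 ± 0.0560, 0.611 ± 0.0693 and 0.645 ± 0.0914 (SD, n = 4), with overlapping libraries in each case.

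**Figure D2:**
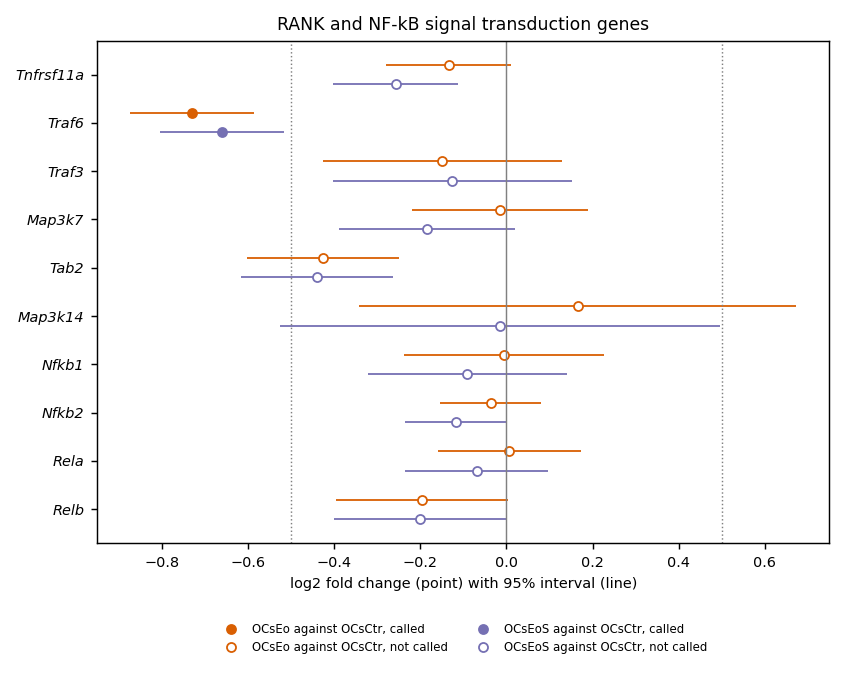
Log2 fold change of the 10 genes against OCsCtr (points, filled where called) with 95% intervals (lines) for OCsEo and OCsEoS, with dotted lines at the cut-off of 0.5 in either direction. Only the Traf6 points are filled, at -0.73 and -0.66, and 7 of the 10 intervals lie wholly within the cut-off in each comparison.

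Counted over the 10 genes, 1 was called lower and 0 higher in OCsEo, where 2.61% of all genes tested were called lower and 3.27% higher. In OCsEoS it was again 1 lower and 0 higher, beside 4.11% and 3.63% of all genes. By adjusted p alone 2 were lower in OCsEo (8.35% of all genes) and 3 in OCsEoS (11.2%), and 0 were higher in either (9.06% and 11.8%), also at an unadjusted p under 0.05 (15.5% and 17.1% of all genes). Every library of the stimulated group lay below every control for 2 genes in OCsEo (10.9% of all genes) and for 4 in OCsEoS (13.1%), the latter being Tnfrsf11a, Traf6, Tab2 and Nfkb2. The median log2 fold change of the 10 was -0.09 in OCsEo and -0.15 in OCsEoS, against -0.01 over all genes in each, and 8 and 10 of the 10 estimates were below 0. With the length trend taken out the medians were -0.04 and -0.09 (all genes 0.02 and 0.04) and 7 and 8 estimates were below 0. The intervals of 7 of 10 genes lay inside the cut-off in each comparison, the exceptions being Traf6, Tab2 and Map3k14. Between OCsEoS and OCsEo none of the 10 was called by edgeR or DESeq2, beside 0.307% lower and 0.0731% higher of all genes by edgeR, and 0 had an unadjusted p under 0.05 (6.23% lower and 4.90% higher of all genes). For 9 of the 10 the interval of that difference lay within the cut-off, and the exception was again the weakly expressed Map3k14.

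The variation within groups followed single libraries across several of the genes. OCsEo replicate 3 was the lowest of its group for 7 of the 10 genes and OCsEoS replicate 3 for 5, while OCsCtr replicate 4 and OCsEo replicate 2 were the highest of their groups for 5 each. These libraries were kept, and the values of Traf6 without each of them are within the range of -0.75 to -0.71 in OCsEo and -0.69 to -0.61 in OCsEoS.

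Levels between genes were compared per kilobase of gene length. In OCsCtr, Nfkb2 was the most abundant at 43.6 ± 1.502 CPM per kilobase (SD, n = 4), followed by Tnfrsf11a (19.5 ± 0.462), Rela (17.3 ± 1.08), Relb (12.1 ± 1.25), Tab2 (11.4 ± 1.06) and Traf6 (10.9 ± 0.458). Below these came Map3k7 (5.76 ± 0.349), Nfkb1 (4.71 ± 0.402), Traf3 (2.54 ± 0.385) and Map3k14 (0.628 ± 0.188). Relb, Tab2 and Traf6 overlapped with their neighbours in this order, and the other neighbours did not overlap. Among all genes tested, the levels ran from the 21.1 percentile (Map3k14) to the 88.7 percentile (Nfkb2). In OCsEo the level of Traf6 was 6.55 ± 0.204 CPM per kilobase, which overlapped that of Map3k7 (5.70 ± 0.682), whereas in OCsCtr the lowest Traf6 library was at 10.4 and the highest Map3k7 library at 6.22. In OCsEoS Traf6 (6.87 ± 0.460) again lay above Map3k7 (5.07 ± 0.507) with no overlap. Tnfrsf11a and Rela, apart in OCsCtr, overlapped in OCsEo (17.7 ± 1.53 and 17.4 ± 0.388) and in OCsEoS (16.3 ± 1.04 and 16.5 ± 1.59).

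**Figure D3:**
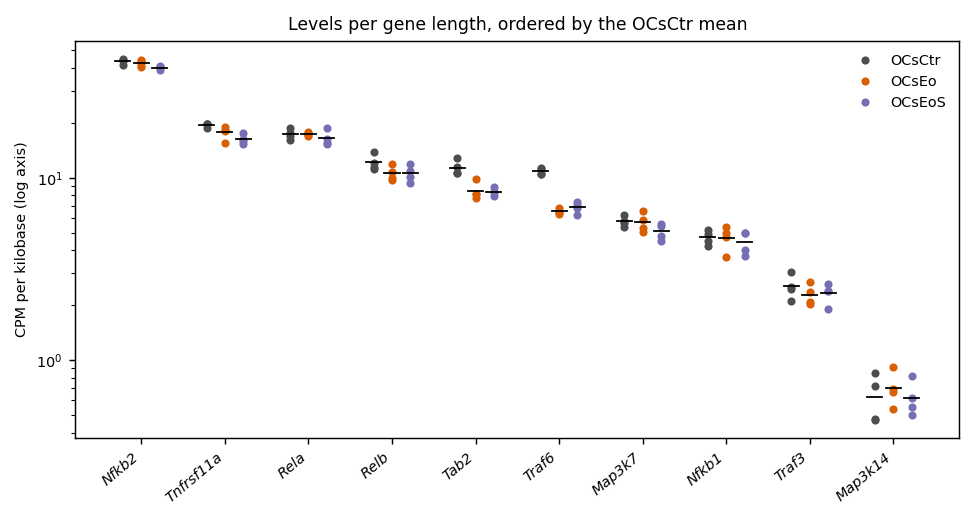
Level of the 10 genes in CPM per kilobase of gene length on a log axis, ordered by the OCsCtr mean, with a point for each library and a line for the mean of each group. The order runs from Nfkb2 at 43.6 to Map3k14 at 0.628 in OCsCtr, and the stimulated Traf6 points drop from 10.9 towards those of Map3k7.

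The genes whose log2 CPM was most like that of Traf6 over the 12 libraries, among 8304 genes outside the lists with enough counts, were Hs2st1 (Pearson r = 0.974), Plekhm1 (0.972), Mdfic (0.972), Clpx (0.971) and Tm4sf19 (0.969). The points share the 3 groups, and with group means taken out the same coefficients were 0.22 to 0.71. Plekhm1, a lysosome adaptor needed for bone resorption, had 147, 96.4 and 98.9 CPM in OCsCtr, OCsEo and OCsEoS, and Tm4sf19, a membrane protein, 172, 101 and 105 CPM. Among the 10 genes themselves, Tab2 (r = 0.888) and Tnfrsf11a (0.684) were the most like Traf6, with 0.22 and 0.25 once group means were taken out. The order depended on the group means, and without them Rela had the highest coefficient (0.56, against 0.23 over the libraries as they stand).

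The other genes of the pathway were counted from a list of 44, of which 43 passed the filter. In OCsEo 3 were called lower (Gab2, Src and Rel) and 1 higher (Map2k6). In OCsEoS 4 were called lower (Gab2, Src, Rel and Tab1) and 0 higher. The shares over all genes tested are those given above for each direction, and the medians of the list were -0.00 and -0.07. By adjusted p alone 6 were lower and 4 higher in OCsEo, and 9 lower and 3 higher in OCsEoS, while 33 and 31 did not pass.

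The ligand RANKL (Tnfsf11) was supplied in the medium, and its own RNA was at 0 to 0.333 CPM and was not tested. The decoy receptor osteoprotegerin (Tnfrsf11b), which binds RANKL, was low and uneven at 0.559 to 3.09 CPM in OCsCtr, 0.687 to 1.57 in OCsEo and 0.890 to 3.03 in OCsEoS. The fitted difference was -0.37 ± 0.53 on the log2 scale in OCsEo and 0.19 ± 0.53 in OCsEoS, neither of which passed (adjusted p = 0.704 and 0.847).

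Gab2, a scaffold that associates with RANK, had 29.6, 31.9, 30.6 and 32.9 CPM in OCsCtr, 17.6, 22.9, 13.3 and 20.4 CPM in OCsEo and 17.3, 20.5, 16.7 and 14.6 CPM in OCsEoS. All stimulated libraries were below all controls, and the log2 fold changes were -0.75 ± 0.14 (adjusted p = 8.16e-04) and -0.86 ± 0.14 (adjusted p = 1.78e-04). Src, the kinase that binds Traf6 and is needed for the ruffled border, had 171, 168, 178 and 162 CPM in OCsCtr, 113, 124, 107 and 121 CPM in OCsEo and 107, 117, 111 and 95.5 CPM in OCsEoS. Its groups were likewise apart, at -0.55 ± 0.07 (adjusted p = 2.60e-05) and -0.66 ± 0.07 on the log2 scale (adjusted p = 4.27e-06). The other TRAF genes Traf1, Traf2, Traf4 and Traf5, the ubiquitin ligases Birc2 and Birc3, and Sqstm1 and Grb2 did not pass the test in either comparison.

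Tab1, a second subunit of the TAK1 complex, had 12.3, 15.0, 13.7 and 18.3 CPM in OCsCtr, 13.9, 17.0, 12.9 and 17.3 CPM in OCsEo and 11.8, 10.2, 8.73 and 10.8 CPM in OCsEoS. The OCsEoS libraries were all below the others, with a log2 fold change of -0.51 ± 0.15 (adjusted p = 0.0145) against 0.04 ± 0.14 in OCsEo (adjusted p = 0.892). The direct difference between the stimuli was -0.55 ± 0.15 and did not pass (adjusted p = 0.101). The call in OCsEoS was lost without OCsCtr replicate 4 (-0.40), OCsEoS replicate 2 (-0.499, just short of the cut-off) or OCsEoS replicate 3 (-0.43).

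In the IKK complex, which TAK1 phosphorylates, the catalytic subunits Chuk (IKKα) and Ikbkb (IKKβ) did not pass the test. Chuk was at 39.5 to 42.5 CPM in OCsCtr, 40.2 to 49.8 in OCsEo and 39.2 to 51.6 in OCsEoS (log2 fold changes 0.07 ± 0.09 and 0.17 ± 0.09). In OCsEoS Chuk passed the adjusted p in 1 of 22 other settings (0.0399), still short of the fold cut-off. Ikbkb was at 28.2 to 32.6, 26.3 to 31.2 and 22.7 to 32.1 CPM (-0.03 ± 0.10 and -0.11 ± 0.10). The scaffold subunit Ikbkg (NEMO) was lower by adjusted p alone, at 110 to 122 CPM in OCsCtr, 94.5 to 103 in OCsEo and 95.4 to 109 in OCsEoS, at -0.24 ± 0.06 (adjusted p = 0.0111) and -0.21 ± 0.06 on the log2 scale (adjusted p = 0.0209). Both groups lay below the controls. With the length trend taken out, Ikbkg, at 8110 bases, stood at -0.12 and -0.07, and neither passed (adjusted p = 0.296 and 0.541). The OCsEoS value also missed the adjusted p in 4 of the fits with a library left out.

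The IkB proteins hold NF-kB dimers in the cytosol, and the adjusted p-values of the 6 tested were 0.0580 or higher. Nfkbia (IkBα), itself a target of NF-kB, had 518, 557, 569 and 530 CPM in OCsCtr, 458, 464, 507 and 527 CPM in OCsEo and 477, 510, 500 and 467 CPM in OCsEoS. The OCsEoS libraries were below all controls, while OCsEo replicate 4 was above the lowest control, and the estimates, -0.15 ± 0.06 on the log2 scale with either stimulus, did not pass (adjusted p = 0.0753 and 0.0580). Nfkbia lay close to the threshold, however, and passed the adjusted p in 3 of 22 other settings in OCsEo and in 7 of 22 in OCsEoS. With the length trend taken out it stood at -0.22 in both (adjusted p = 0.00590 and 0.00432), still short of the fold cut-off, and over all 22 settings the adjusted p ran from 0.00590 to 0.217 in OCsEo and from 0.00432 to 0.186 in OCsEoS. Rel, the fifth NF-kB subunit and the only one called, had 26.2, 25.0, 26.6 and 30.1 CPM in OCsCtr, 15.3, 21.2, 16.7 and 17.5 CPM in OCsEo and 18.4, 21.0, 17.2 and 19.4 CPM in OCsEoS. All stimulated libraries were below all controls. The log2 fold changes were -0.61 ± 0.11 (adjusted p = 9.35e-04) and -0.50 ± 0.11 (adjusted p = 0.00278), the latter so close to the cut-off that it fell short of it in 5 of the other settings tried and without OCsCtr replicate 4, OCsEoS replicate 1 or OCsEoS replicate 3 (-0.48 to -0.45), while still passing the adjusted p. Among these settings was the fit with the length trend taken out, at -0.38 (adjusted p = 0.0147).

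Of 10 genes for proteins that add, read or remove ubiquitin chains, edgeR called 0, and 2 passed the adjusted p alone in OCsEo (both higher) and 5 in OCsEoS (3 lower and 2 higher). Of all genes, 8.35% were lower and 9.06% higher by this rule in OCsEo and 11.2% and 11.8% in OCsEoS, so the count in OCsEo is near the background. Of the 10 genes, the deubiquitinase Otulin was higher with either stimulus (0.27 ± 0.07 and 0.41 ± 0.07), the LUBAC subunit Rbck1 higher in OCsEo (0.21 ± 0.07) and the Traf6 partner Ube2n higher in OCsEoS (0.19 ± 0.07). The deubiquitinase Cyld (-0.38 ± 0.07), the editing enzyme Tnfaip3 (A20, -0.44 ± 0.11) and its binding partner Tnip1 (-0.38 ± 0.11) were lower in OCsEoS, with adjusted p-values of 7.62e-04, 0.00490 and 0.0149. Otulin, Cyld, Tnfaip3 and Tnip1 are all known to restrain NF-kB, and they did not move in 1 direction. Their lengths are 1491, 8035, 7226 and 3539 bases, in this order, and the part of the length trend in their directions was not tested. In the MAP kinase branch of 10 genes, Map2k6, a kinase that activates p38, was called higher in OCsEo. It had 3.36, 2.43, 2.21 and 1.99 CPM in OCsCtr, 3.71, 4.47, 5.51 and 3.57 CPM in OCsEo and 2.38, 2.05, 3.03 and 3.18 CPM in OCsEoS, with a log2 fold change of 0.79 ± 0.25 in OCsEo (adjusted p = 0.0331). Its call was lost when any of OCsCtr replicates 2, 3 and 4 or OCsEo replicates 2 and 3 was left out. The direct difference between the stimuli did not pass (-0.70 ± 0.25, adjusted p = 0.269). Map2k1 was higher by adjusted p alone with either stimulus, Map2k4 lower with either and Map2k3 lower in OCsEo, by at most 0.29 on the log2 scale, and the MAP kinases Mapk3, Mapk8, Mapk9 and Mapk14 did not pass.

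**Figure D4:**
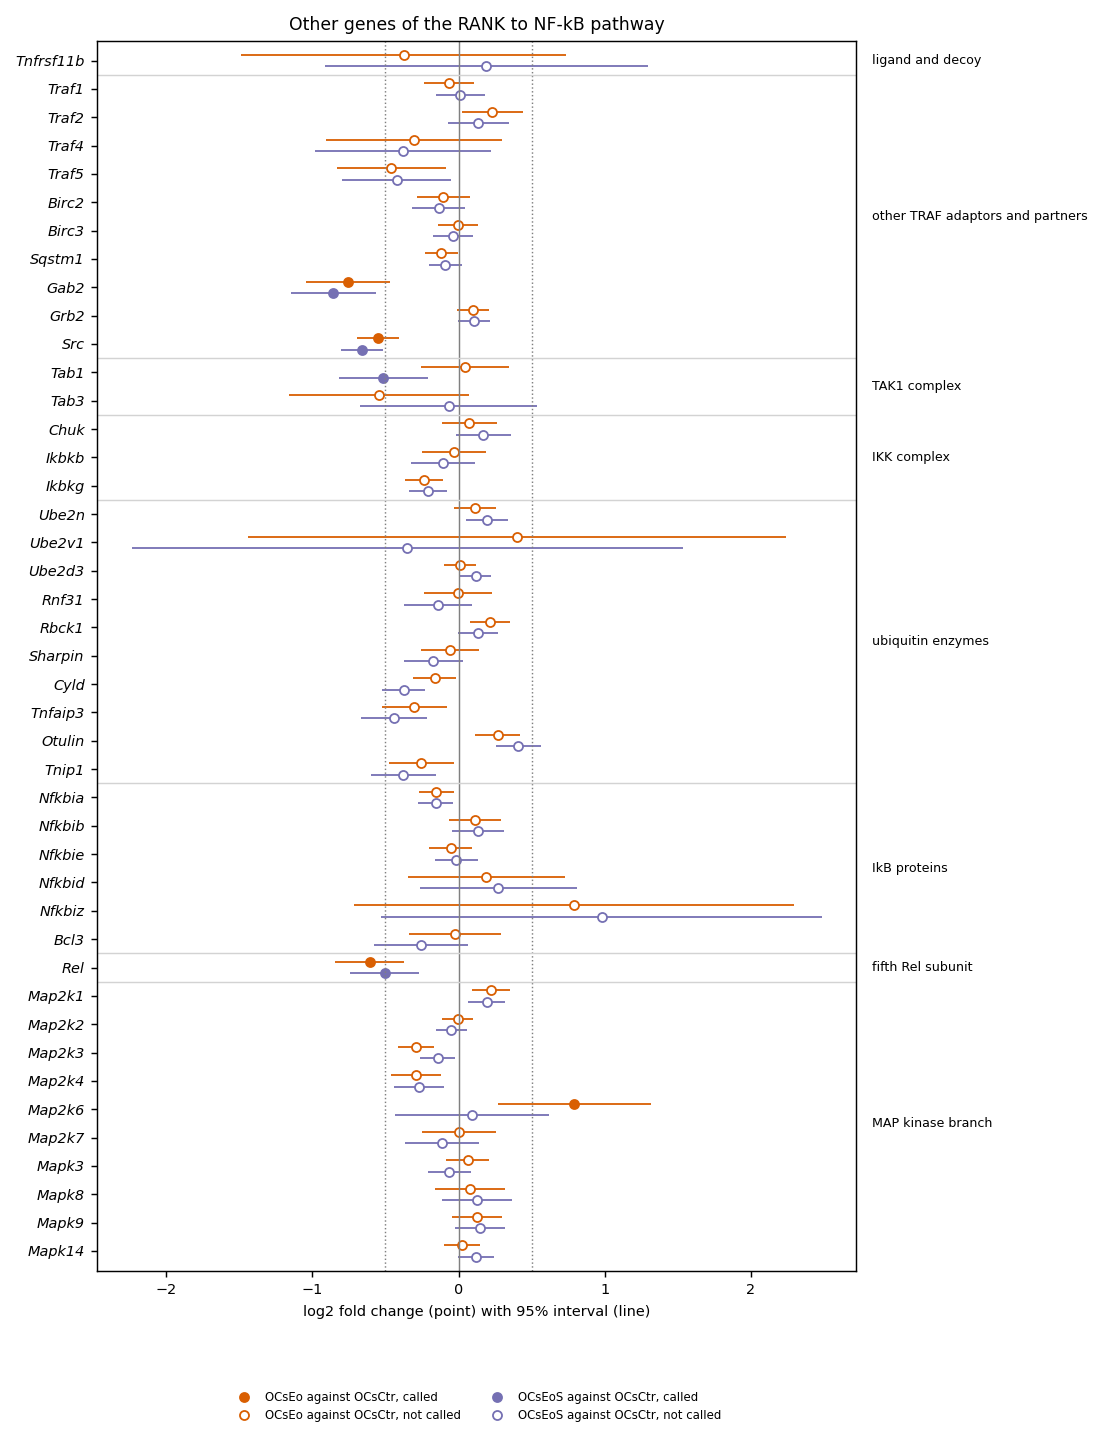
Log2 fold change against OCsCtr (points, filled where called) with 95% intervals (lines) for the 43 other pathway genes tested, grouped by role, with dotted lines at the cut-off of 0.5. Filled points are those of Gab2, Src and Rel with either stimulus, Tab1 in OCsEoS and Map2k6 in OCsEo, and most other intervals cross or sit near 0.

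Genes known to be induced by NF-kB were counted as a readout of the end of the pathway at the RNA level. Of 20 such genes 17 were tested, and edgeR called 0 in either direction in each comparison, as DESeq2 did. Over all genes tested the shares called were 2.61% lower and 3.27% higher in OCsEo and 4.11% and 3.63% in OCsEoS, which amount to less than 1 of 17 genes in each direction, so the count of 0 is near the background. With an unadjusted p under 0.05 there were 3 lower and 1 higher in OCsEo (14.3% and 15.5% of all genes) and 3 lower and 1 higher in OCsEoS (17.2% and 17.1%). By adjusted p alone Sod2, the mitochondrial superoxide dismutase, was lower with either stimulus (-0.21 ± 0.07 and -0.22 ± 0.07), Tnfaip3 lower in OCsEoS and the survival gene Bcl2l1 higher in OCsEo (0.39 ± 0.11, adjusted p = 0.0159). The medians of the list were -0.05 and -0.04. The list shares genes such as Nfkbia and Tnfaip3 with the pathway list, so the counts of the lists are not independent. Some genes of the target list, such as Tnf and Il1b, had standard errors of 0.50 to 0.73 on the log2 scale, so changes at the cut-off were not detectable for them. The interval lay within the cut-off for 9 and 8 of the 17.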

How the data were processed

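RNA-seq of 12 libraries was analysed, 4 each of OCsCtr, OCsEo and OCsEoS. The authors removed adapter, poly-N and low-quality reads, aligned the paired reads with HISAT2 2.0.5 to GRCm38/mm10 and counted them per gene with featureCounts; the annotation release and strand setting are not given in the sources used here. The raw counts were used as deposited. In R 4.3.3, edgeR 4.0.16 removed genes with low counts (filterByExpr, minimum count 10), scaled libraries by TMM, and fitted all 12 libraries with 3 groups. Groups were compared by its quasi-likelihood F-test, with Benjamini-Hochberg adjustment over 13681 genes. The call needed an adjusted p below 0.05 and a log2 fold change beyond 0.5 in size, the cut-off in the study's methods. Levels per kilobase used the gene lengths in the deposited table, and log2 CPM used a prior count of 2. Replicates of 1 group differed by more than counting error (chi-square per degree of freedom 9.79 to 34.4), and each was counted as its own sample. This check cannot show that they came from separate animals.

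Named were all 10 genes, every pathway or target gene called, Tnfsf11, Tnfrsf11b, Chuk, Ikbkb, Ikbkg, Rel and Nfkbia, and the 5 genes most correlated with the most lowered member; pathway and target genes named by adjusted p alone, those named as not passing, and Tnf and Il1b were added after their values were seen. The members and lists were chosen with earlier results of these data known. 1 pathway gene is not reported here and was left out of the list and its counts. DESeq2 1.42.0 and limma 3.58.1 served in alternatives, and the methods were tested on simulated data. Of the gene identifiers, 99.1% are in GENCODE vM21, used for overlaps; coordinates are those of the deposited table.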

Additional observations from a re-analysis of the deposited data

Results flagged for a closer look

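Within the groups of 4, 60 sets of values were examined for a sample far from the others, which chance alone flags in about 1 of 20, and 2 stood apart. Tnfrsf11a was at 112.3 CPM in OCsCtr replicate 2, while the other OCsCtr libraries were between 117.6 and 118.0 CPM, so the gap made up 0.941 of the range of the group. Tnfrsf11b was at 3.03 CPM in OCsEoS replicate 1, while the other OCsEoS libraries were between 0.890 and 1.25 CPM, a gap of 0.830 of the range.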

How the results depend on the processing

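The call of Traf6 held in both comparisons under upper-quartile scaling or the size factors of DESeq2, in DESeq2 itself with 3 or 2 groups, in edgeR with 2 groups, with every gene kept or only those with 10 counts in all libraries, with the replicate block, the length trend taken out (added after the data were seen) and each library left out. It was lost in edgeR's test against a log2 fold change of 0.5, under which the 10 genes and the pathway list had 0 called lower in either comparison and the pathway list 0 higher in OCsEo. The cause is the stricter null hypothesis, which calls 50, 55 and 3 genes of the whole table in OCsEo, OCsEoS and between the stimuli, against 804, 1058 and 52. With no threshold on the fold change these were 2382, 3151 and 81; of the 10 genes 2 and 3 were then lower, of the pathway list 6 and 9 lower and 4 and 3 higher, and of the targets 1 and 2 lower and 1 higher in OCsEo. Between the stimuli DESeq2 on all libraries called 94 genes and a fit without the filter 100, and 17 to 62 were called with a library left out, the fewest without OCsEoS replicate 3.

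With a library left out, 1 to 2 of the 10 genes were lower in OCsEo (2 without OCsEo replicate 2), the pathway list had 0 to 1 higher in OCsEo, and 2 to 4 lower in OCsEoS (2 without OCsCtr replicate 4 or OCsEoS replicate 3). The sign turned, with no gene passing the test, over these ranges of the log2 fold change: in OCsEo Map3k7 -0.0921 to 0.0374, Nfkb1 -0.0791 to 0.0921, Rela -0.0247 to 0.0435, Tab1 -0.0390 to 0.158, Tnfrsf11b -0.64 to 0.35 and Ikbkb -0.0598 to 0.0192; in OCsEoS Map3k14 -0.16 to 0.15, Map2k6 -0.00114 to 0.26 and Tnfrsf11b -0.31 to 0.91; between the stimuli Traf3 -0.0362 to 0.111, Tab2 -0.0533 to 0.0630 and Relb -0.0655 to 0.0556. With the length trend taken out it turned for Map3k7 (0.0613), Nfkb1 (0.16), Rela (-0.0106) and Ikbkb (0.20) in OCsEo, for Map3k14 (0.10), Nfkb1 (0.10) and Ikbkb (0.16) in OCsEoS, and for Tab2 (0.0143) and Relb (0.0154) between the stimuli, and with the stricter filter of 10 counts for Relb (0.000675) there. The cause was not tested.

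The replicate number was not taken to pair the libraries, since the deviations of libraries with the same number had correlations of only -0.04 to 0.09 over 12 pairs. Still, 6 of 12 libraries correlated best with their own number in both other groups, which is a hint of pairing from the data and not from the design. With the number as a replicate block Traf6 stood at -0.73 in OCsEo, 1 of the 10 genes was lower in each comparison with OCsCtr, the whole-table counts were 854, 1108 and 67, and no call changed among the genes and lists refitted. Nfkbia, short of the adjusted p without the block, passed it with the block in OCsEo and OCsEoS (0.0490 and 0.0384). Map3k14, Map2k6, Tnfrsf11b and the low target genes had low levels and wide standard errors, and the part of depth in these was not tested.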
